A study of Mus musculus with 20 samples.

Results

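Oral CEC was compared with oral phosphate-buffered saline (PBS) in mice that had received DNBS, in RNA of the ileal mucosa. The 5 samples labelled DNBS and CEC (CEC 1, 3, 5, 7 and 8) were set against the 5 labelled DNBS and PBS (DNBS 1 to 5), out of 20 samples in the series. Of the 648 real-time PCR assays on the TaqMan OpenArray mouse inflammation panel, the 581 with at least 3 values in each of these groups were described. They covered 522 genes, and 558 of them had all 5 values in both groups. The groups and assays were picked by label and by the number of values, not by any level.

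All animals of both groups carried the same intrarectal treatment, DNBS (dinitrobenzene sulfonic acid), so that the groups differed in the oral agent alone as far as the labels say. CEC is named here as labelled, since the labels do not spell it out. The series also holds 5 healthy controls given PBS by both routes and 5 DNBS samples given oral Nissle, the name of a probiotic Escherichia coli strain. Both served here for the estimate of the spread, and the healthy controls also as a reference level. Strain, sex, age, doses and times are not given in the sources used here. The series text speaks of RNA pooled from mice and does not make clear whether 1 sample is 1 mouse, so the p-values rest on the spread among these samples, which can be technical.

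DNBS is a hapten: it binds to proteins of the bowel wall and makes them targets of T cells, and a rectal dose inflames the colon. The ileum lies upstream of the site of the dose. There the mucosa is lined by absorptive enterocytes, with Paneth cells and a dense population of lymphocytes and macrophages below and between them. In inflamed gut, interleukin-1 and interleukin-6 type cytokines drive the acute response, CXC chemokines draw in neutrophils, and S100A8 and S100A9 are the main soluble proteins of the neutrophils that arrive.

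The cycle threshold (Ct) counts PCR cycles up to a set fluorescence, so less template gives a higher Ct. From each Ct the sample's mean Ct over the 544 assays read in all 20 samples was subtracted and the sign turned, which gave the relative level. One unit is 1 cycle, a log2 unit under the assumption, not measured, of a doubling per cycle. A sample gave values for 579 to 593 assays in the CEC group and for 581 to 593 in the DNBS group, with mean Cts of 23.06 to 24.28 and 22.8 to 24.1 cycles. Epithelial genes of the small intestine were read in all 10 samples: Reg3g, an antibacterial lectin, reached threshold at 10.7 to 13.92 cycles and Ccl25, an enterocyte chemokine, at 16.78 to 19.73 cycles. In bulk mucosa, fewer cells of a type and less RNA per cell cannot be told apart.

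No assay passed the threshold: 0 of 581 (0.0%) had an adjusted p under 0.05 (limma, two-sided), and the smallest adjusted p was 0.366, for Tgm2. At an unadjusted p under 0.05 stood 38 assays that were higher in the CEC group (6.54% of 581) and 24 that were lower (4.13%). The mean was higher in the CEC group for 279 assays (48.0%). Of the assays at an unadjusted p under 0.05, 61.3% were thus higher. That share was 14.7% without normalization, 45.8% with quantile normalization, 84.2% when the median assay set the scale, 72.1% after centring runs of the table and 48.9% without single-exon assays. Over all assays the median difference was -0.02 on the log2 scale, with quartiles of -0.39 and 0.43 and a median standard error of 0.42. The median was -0.21 without normalization and 0.13 when the median assay set the scale. The mean was at least 2-fold higher in 33 assays and at least 2-fold lower in 36. All CEC samples lay above all DNBS samples in 11 of the 558 assays with complete values (1.97%), and all lay below in 7 (1.25%). With weights estimated for each array, 21 assays passed, 14 higher and 7 lower, among them Tgm2, Hif1a, Akt1, Il1b, both Ccl7 assays, Ltf, Hdac5, B2m, Ccl25, Cx3cr1 and Ifne. The named values below did not pass in the main test.

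**Figure D1:**
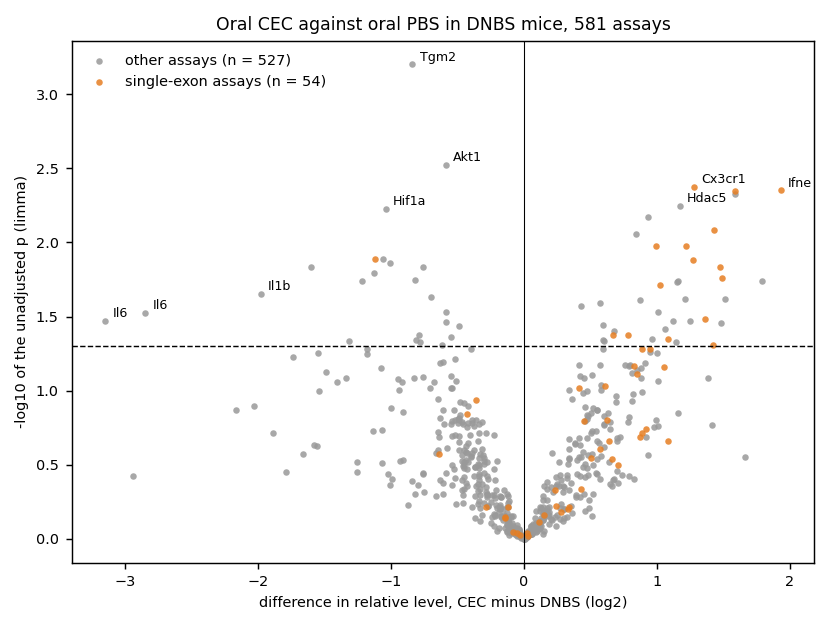
Difference in relative level between the CEC and DNBS groups (log2, x axis) against the negative log10 of the unadjusted limma p (y axis) for 581 assays, with the 54 single-exon assays in orange and the dashed line at 0.05. Tgm2 and Akt1 stand highest on the lower side, and 15 single-exon assays lie past the line on the higher side against 1 on the lower side.

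Both a class of assays and the position in the table moved with these differences. Single-exon assays place both primers in 1 exon and can also amplify genomic DNA. Of the 54 tested, 43 were higher in the CEC group (median 0.63), while 236 of the other 527 were higher, with a median of -0.05. The mean relative level over single-exon assays was -0.79 to -0.02 in the CEC samples and -1.67 to -0.47 in the DNBS samples, so the groups overlapped. The rows of the table were cut here into 12 consecutive runs of 54 assays, a division that the labels do not give. Within a run the assays of a sample deviated together, and what a run is remains unstated. The median difference was 0.8 in run 1, 0.39, 0.47 and 0.24 in runs 4, 7 and 10, and -0.31, -0.35, -0.4 and -0.31 in runs 3, 6, 9 and 12. The assays at an unadjusted p under 0.05 followed the runs: in 7 runs they were mostly or only higher, with 10 higher and 0 lower in run 1, and in the other 5 runs they were only lower. DNBS 2 deviated by 1.21 in run 1 and by -0.96 in run 9, and DNBS 5 by -0.7 and 0.97 in the same runs. Healthy 5 had the widest deviations of the series, from -1.53 to 1.01 over the runs (SD 0.84). It enters the shared spread and the healthy levels given below, which were not centred. Without it 81 assays had an unadjusted p under 0.05 (smallest adjusted p = 0.155, limma). After centring each run in each sample, 43 assays had an unadjusted p under 0.05, of which 26 (18 higher, 8 lower) were among the 62 above. The centred difference is given below for the values it moved most. The part of the runs and of the assay class in any single difference was not tested.

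**Figure D2:**
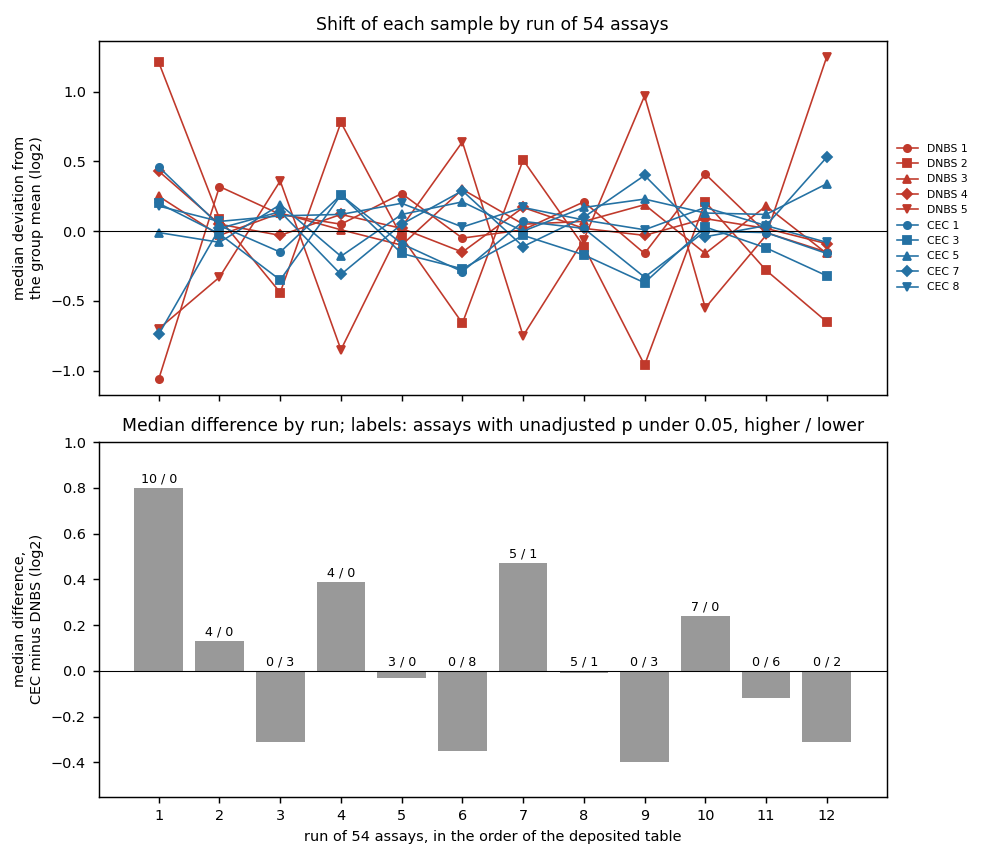
Upper panel: median deviation of each CEC and DNBS sample from its group mean (log2, y axis) in each run of 54 assays (x axis). Lower panel: median difference between the groups by run (bars), labelled with the numbers of assays at an unadjusted p under 0.05 that were higher and lower in the CEC group; DNBS 2 and DNBS 5 deviate in opposite directions in runs 1, 4, 6, 7, 9 and 12, and the bars run from -0.4 in run 9 to 0.8 in run 1.

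Interleukin-6 had the largest mean difference among the named cytokines and a wide spread. Il6 encodes a cytokine of the acute-phase response that signals through gp130. With assay Il6_Mm00446190_m1 its relative levels were -2.84, -1.75, -7.94, -5.51 and -4.76 in CEC 1, 3, 5, 7 and 8, and -1.27, -0.93, -2.5, -2.63 and -1.26 in DNBS 1 to 5. CEC 3 lay within the DNBS range, CEC 1 just below it and the other 3 CEC samples far below it. The mean was 7.19-fold higher in the DNBS group, a log2 difference of -2.85 (SE 1.22, 95% interval -5.39 to -0.31; limma, adjusted p = 0.454). The healthy controls stood at -6.33 ± 0.76 (SD, n = 5), so CEC 5 lay below their mean.

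Both further Il6 assays also had lower means in the CEC group. Il6_Mm01210732_g1 read -4.18, -1.87, -5.61, -5.47 and -4.53 in the CEC samples and 0.15, -0.82, -3.09, -1.43 and -0.73 in the DNBS samples, a difference of -3.15 (SE 1.35). Il6_Mm01210733_m1 gave -2.94 with an SE of 3.26, in a fit that shared the spread of all 4 groups. In the healthy controls that assay had 3 values, from -7.46 to 18.05. With healthy mean Cts of 22.96 to 23.92 cycles, the highest of these is a Ct under 10 cycles. Whether that value reads Il6 was not tested. With the CEC and DNBS groups fitted alone the difference was -3.15 (SE 0.75; limma, adjusted p = 0.218) for Il6_Mm01210732_g1. For Il6_Mm01210733_m1 it was -2.94 (SE 0.96; limma, adjusted p = 0.313). In each of the 3 assays CEC 3 was the highest CEC sample.

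Other cytokines that use gp130 had smaller differences. Lif, which encodes leukaemia inhibitory factor, was at -3.78, -4.57, -3.58, -3.55 and -3.02 in the CEC samples and at -2.65, -2.25, -2.72, -2.9 and -2.96 in the DNBS samples. The groups did not overlap, by a margin between CEC 8 and DNBS 5 that was small beside the spread. The difference was -1.01 (SE 0.37, 2.01-fold lower; limma, adjusted p = 0.399). In the healthy controls Lif stood at -2.83 ± 0.62 (SD, n = 5), near the DNBS mean of -2.69. Osm, which encodes oncostatin M, a cytokine of activated myeloid cells, had a difference of -1.49 (SE 0.8), with CEC samples from -6.6 to -2.9 and DNBS samples from -4.19 to -1.7. Il6st, which encodes gp130 itself, differed by -0.38 (SE 0.27), and by -0.09 after centring runs. Of the 12 measured genes of the gp130 list 3 were higher and 9 lower in the CEC group, 0 and 2 of them at an unadjusted p under 0.05. The list's median was -0.28 against -0.02 for all assays, and turned to 0.02 after centring runs.

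**Figure D3:**
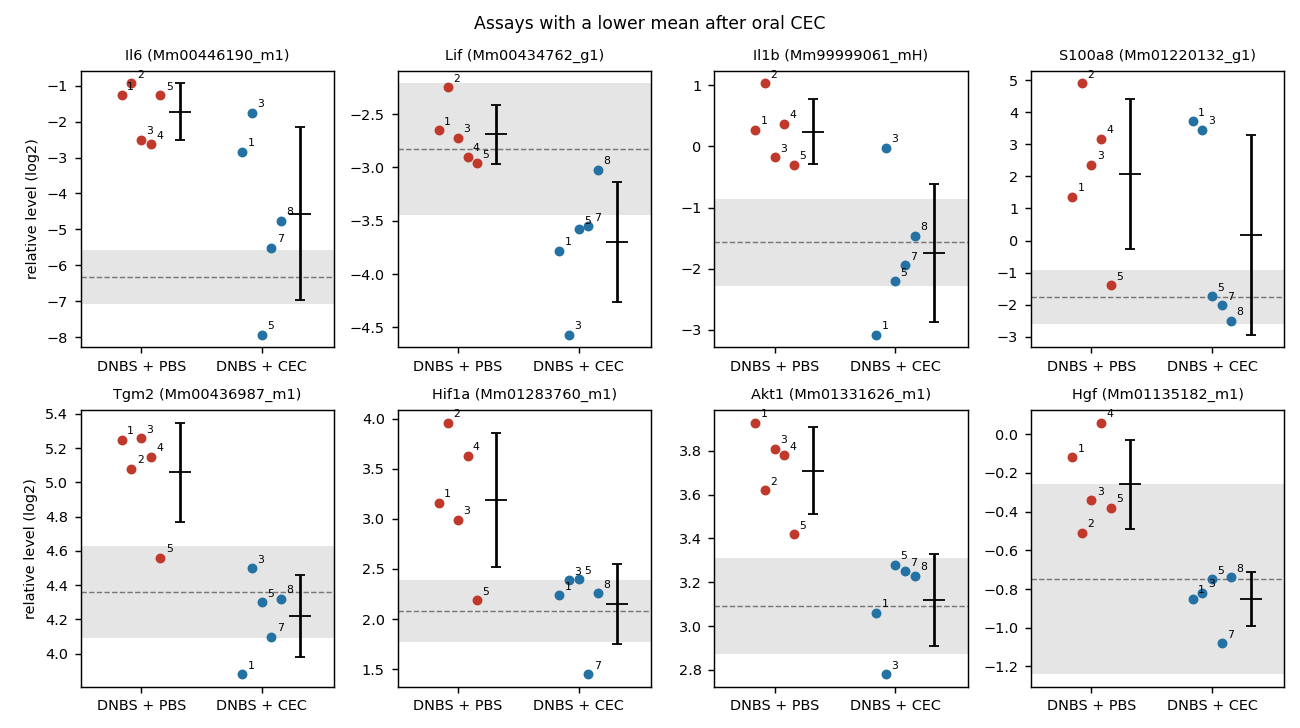
Relative level (log2, y axis) of 8 assays in each DNBS and CEC sample (points, labelled by sample number), with group mean and SD (black bars) and the mean and SD of the 5 healthy controls (dashed line and grey band). In Lif, Tgm2, Akt1 and Hgf no CEC sample reaches the lowest DNBS sample, and in S100a8 the CEC samples 1 and 3 stand at 3.71 and 3.45 while the other 3 lie at or below -1.73.

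Within the interleukin-1 family the largest difference was in Il1b, a cytokine whose precursor is cut under the control of inflammasomes. Il1b_Mm99999061_mH read -3.08, -0.02, -2.2, -1.94 and -1.46 in the CEC samples and 0.27, 1.03, -0.18, 0.37 and -0.3 in the DNBS samples. CEC 3 again lay within the DNBS range, and the other 4 CEC samples lay below it. The difference was -1.98 (SE 0.8, 3.94-fold lower; limma, adjusted p = 0.43), and the healthy controls stood at -1.57 ± 0.71 (SD, n = 5). The second assay, Il1b_Mm01336189_m1, gave -0.75 (SE 1.06), with DNBS samples from -2.89 to 2.11.

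Il18rap, a subunit of the interleukin-18 receptor, was at -4.07, -2.82, -3.42, -3.88 and -2.89 in the CEC samples and at -2.67, -2.02, -2.6, -2.91 and -2.85 in the DNBS samples, a difference of -0.81 (SE 0.38). The receptor subunit Il1rap and the inflammasome adaptor Pycard went the other way. Il1rap was at -1.68, -1.23, -1.47, -0.84 and -1.4 in the CEC samples, all above the DNBS samples at -2.04 to -1.76 (0.57, SE 0.29; limma, adjusted p = 0.483). Pycard differed by 0.58 (SE 0.33), and by 0.29 after centring runs. Of 19 measured genes of the family and its signalling 6 were higher and 13 lower, 0 and 2 at an unadjusted p under 0.05. Their median was -0.3, and -0.49 to -0.11 over 40 alternative settings.

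Neutrophil markers had the lowest median of the 26 gene lists, at -0.8, with 1 of 8 measured members higher and 7 lower and none at an unadjusted p under 0.05. Over the alternatives the median ranged from -1.18 without the single-exon member to -0.16 with the sample number as a replicate block, and it was -0.51 without CEC 7. The block's difference leaves out CEC 7 and CEC 8, since no sample of another group has their numbers. Averaged over members, the CEC samples lay between -2.51 and 0.39 and the DNBS samples between -1.94 and 0.52, so the groups overlapped. The lists were chosen with earlier results of these data known, and are described rather than tested.

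The calprotectin genes showed how uneven the CEC samples were. S100a8_Mm01220132_g1 read 3.71, 3.45, -1.73, -2.02 and -2.5 in the CEC samples and 1.36, 4.9, 2.36, 3.17 and -1.4 in the DNBS samples. CEC 1 and 3 stood among the high DNBS samples, and CEC 5, 7 and 8 stood with DNBS 5 near the healthy controls, which were at -1.76 ± 0.84 (SD, n = 5). The mean difference was -1.89 (SE 1.4, 95% interval -4.82 to 1.03). The second S100a8 assay had the same CEC samples high, at 2.85 and 2.73 in CEC 1 and 3 against -2.73, -1.31 and -2.62 in CEC 5, 7 and 8, and a difference of -1.58 (SE 1.28). S100a9 was at 2.28, 2.18, -3.05, -3.02 and -2.51 in the CEC samples and at 1.25, 3.97, 0.48, 2.14 and -3.67 in the DNBS samples, a difference of -1.66 (SE 1.45, 95% interval -4.68 to 1.37). Both intervals take in differences of either sign.

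Ltf encodes lactoferrin, an iron-binding protein of neutrophil granules. It was at -0.81, 0.51, -1.17, -2.25 and -1.39 in the CEC samples and at 0.59, 0.8, 0.92, 0.04 and -1.6 in the DNBS samples. DNBS 5 stood among the lowest CEC samples, and CEC 3 among the DNBS samples. The difference was -1.18 (SE 0.57; limma, adjusted p = 0.454), 2.26-fold lower. Ncf1, a subunit of the phagocyte oxidase, differed by -0.42 (SE 0.29), and by -0.14 after centring runs.

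Among chemokines that recruit neutrophils and monocytes, Cxcl2 was at -0.85 and -1.1 in CEC 1 and 3 and at -4.98, -4.07 and -4.97 in CEC 5, 7 and 8, against -1.93, -0.03, -2.18, -2.88 and -1.19 in the DNBS samples (-1.56, SE 1.28). Cxcl1 differed by -1.54 (SE 0.9) and -1.07 (SE 0.78) in its assays, and Cxcl3 by -2.03 (SE 1.28). In Cxcl3 the CEC samples read -4.3, -2.1, -7.73, -4.4 and -6.81 and the DNBS samples -3.92, -0.87, -4.6, -2.56 and -3.22, so CEC 5 and CEC 8 alone lay below the DNBS range.

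Ccl7 encodes a monocyte chemoattractant and was measured by 2 assays. Ccl7_Mm00443113_m1 read -2.19, -1.28, -4.13, -1.95 and -5.15 in the CEC samples and -0.91, -0.94, -1.66, -0.64 and -1.88 in the DNBS samples. CEC 3 lay within the DNBS range and the other 4 below it. The differences were -1.74 (SE 0.87) and -1.55 (SE 0.76), 3.34-fold and 2.92-fold lower (limma, adjusted p = 0.474 and 0.46). Of the 13 recruiting chemokines measured, 6 were higher and 7 lower, with a median of -0.54 (-0.73 to -0.17 over the alternatives, the latter without CEC 1) and none at an unadjusted p under 0.05. P-selectin (Selp), which tethers leukocytes to vessel walls, differed by -0.52 (SE 0.59), again with CEC 1 and 3 high at -1.71 and -1.66 and the other CEC samples at -4.39 to -3.04.

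The assay with the smallest p was for Tgm2, which encodes transglutaminase 2, an enzyme that cross-links and deamidates proteins. Its relative levels were 3.88, 4.5, 4.3, 4.1 and 4.32 in the CEC samples and 5.25, 5.08, 5.26, 5.15 and 4.56 in the DNBS samples. The groups did not overlap, with CEC 3 and DNBS 5 nearest to each other. The difference was -0.84 (SE 0.21, 95% interval -1.27 to -0.41), 1.79-fold lower (limma, adjusted p = 0.366). It lay between -1.03 and -0.64 over the alternatives, with adjusted p-values (limma) of 0.0189 with array weights to 0.634 without normalization. In the healthy controls Tgm2 stood at 4.36 ± 0.27 (SD, n = 5). The healthy controls are set beside the groups as a level alone, since any comparison of them with the DNBS group shares the DNBS samples used here.

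Hif1a, the oxygen-regulated subunit of hypoxia-inducible factor, was at 2.24, 2.39, 2.4, 1.45 and 2.26 in the CEC samples and at 3.16, 3.96, 2.99, 3.63 and 2.19 in the DNBS samples. All CEC samples lay below DNBS 1 to 4, and DNBS 5 lay among them. The difference was -1.04 (SE 0.34), 2.06-fold lower (limma, adjusted p = 0.399), and the healthy controls stood at 2.08 ± 0.31 (SD, n = 5). Of the 10 genes listed for hypoxia, nitric oxide and redox reactions, 3 were higher and 7 lower (0 and 1 at an unadjusted p under 0.05). Their median was -0.13, turning to 0.02 when the median assay set the scale. Nos2, the inducible nitric oxide synthase, differed by -0.07 (SE 0.47), with a sign that changed under 9 alternatives. Ptgs2, the inducible cyclooxygenase, differed by -0.91 (SE 0.59), with CEC samples from -4.58 to -2.51 and DNBS samples from -3.87 to -1.66.

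Akt1, a kinase of the phosphoinositide 3-kinase pathway, was at 3.06, 2.78, 3.28, 3.25 and 3.23 in the CEC samples and at 3.93, 3.62, 3.81, 3.78 and 3.42 in the DNBS samples. The groups did not overlap, and the healthy controls stood at 3.09 ± 0.22 (SD, n = 5). The difference was -0.59 (SE 0.18; limma, adjusted p = 0.399). Akt1 belongs to run 3, and after centring runs its difference was -0.31. Plaa, an activator of phospholipase A2 by name, was lower in every CEC sample (2.02 to 3.05) than in every DNBS sample (3.08 to 3.96). Its difference was -0.76 (SE 0.29), and -0.34 after centring.

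Hgf, the hepatocyte growth factor made by stromal cells, had 3 assays. With Hgf_Mm01135183_m1 the CEC samples read -0.93, -0.47, -0.67, -0.52 and -0.47 and the DNBS samples 0.03, -0.19, -0.15, 0.43 and 0.91, without overlap (-0.82, SE 0.32). Hgf_Mm01135182_m1 also separated the groups (-0.59, SE 0.26), and Hgf_Mm01135193_m1 did not (-0.34, SE 0.37). All 3 lie in runs whose median difference was below 0, and the centred differences were -0.39, -0.31 and -0.05. Lrp8, a receptor of the low-density lipoprotein receptor family, differed by -1.06 (SE 0.39), with CEC 1 at -0.15 among the DNBS samples (-0.54 to 0.11) and the other CEC samples at -1.78 to -1.26; the centred difference was -0.7.

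In the TNF superfamily the named members differed in both directions. Tnfsf9, the ligand 4-1BBL, was at -2.84, -1.54, -2.75, -5.24 and -2.16 in the CEC samples and at -2.31, -0.98, -1.08, -0.52 and -1.63 in the DNBS samples (-1.6, SE 0.6; limma, adjusted p = 0.399). Its receptor Tnfrsf9 was at -4.55, -2.76, -2.14, -3.01 and -2.35 in the CEC samples and at -2.19, -1.88, -2.38, -1.64 and -0.61 in the DNBS samples (-1.22, SE 0.48). The groups overlapped in both genes. Tnfrsf1b, the second TNF receptor, differed by -0.61 (SE 0.31), and by -0.36 after centring runs. Tnfsf12, which shares its assay with a fused transcript, differed by 1.15 (SE 0.45), but by 0.4 after centring run 1, to which it belongs. Of 24 measured members of the superfamily 8 were higher and 16 lower, 1 and 2 at an unadjusted p under 0.05. The median was -0.26, and -0.05 after centring runs. Tnf itself had no value in these samples, and neither had Il10.

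Genes of the T helper 1 response differed in both directions. Cxcl9, a chemokine induced by interferon gamma, was at 0.03, 1.52, 2.45, 0.78 and 2.0 in the CEC samples and at 2.47, 2.34, 1.92, 2.5 and 3.23 in the DNBS samples (-1.13, SE 0.43; limma, adjusted p = 0.399). The healthy controls stood at 2.36 ± 0.75 (SD, n = 5), close to the DNBS mean of 2.49. The Ifng assays differed by -0.45 (SE 0.59) and 0.65 (SE 0.79). Il12b, the shared subunit of interleukins 12 and 23, differed by 0.67 (SE 0.78; -0.08 after centring runs) and 0.3 (SE 0.85), and its receptor subunit Il12rb1 by -0.83 (SE 0.46). The interferon gamma receptor gene Ifngr1 differed by 0.91 (SE 0.47), and by 0.16 after centring runs. Of 14 members 6 were higher and 8 lower, 0 and 1 at an unadjusted p under 0.05, with a median of -0.18 that turned to 0.09 with array weights.

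Interleukin-17A, the signature cytokine of T helper 17 cells, was low and scattered. Il17a read -6.32, -4.93, -7.43, -5.56 and -7.4 in the CEC samples and -4.87, -4.03, -7.94, -4.69 and -7.06 in the DNBS samples, a difference of -0.61 (SE 0.88). Il22ra1, the epithelial subunit of the interleukin-22 receptor, was at 1.42, 1.37, 2.24, 2.08 and 2.22 in the CEC samples and at 1.41, 1.29, 1.5, 1.16 and 1.86 in the DNBS samples (0.42, SE 0.23). CEC 5, 7 and 8 lay above every DNBS sample. Of the 11 members measured 6 were higher and 5 lower, with a median of 0.05 that turned to -0.21 after centring runs. The eotaxins Ccl24 and Ccl11, which attract eosinophils, differed by -1.08 (SE 0.57) and -0.76 (SE 0.41).

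Several genes of the absorptive epithelium had higher means in the CEC group. Apoa1, the main protein of high-density lipoprotein, which enterocytes secrete, was measured by 2 assays. Apoa1_Mm00437568_g1 read 9.04, 8.02, 8.66, 7.85 and 7.96 in the CEC samples and 6.24, 6.01, 7.81, 7.15 and 6.37 in the DNBS samples, without overlap (1.59, SE 0.5, 3.01-fold higher; limma, adjusted p = 0.399). Apoa1_Mm00437569_m1 read 8.93, 8.3, 8.91, 8.55 and 8.38 against 7.7, 6.26, 8.44, 7.75 and 7.12, a difference of 1.16 (SE 0.45). The first belongs to run 1 and the second to run 7, and after centring runs they gave 0.84 and 0.88. Both healthy means, 7.44 and 8.1, lay between those of the CEC and DNBS groups.

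Ccl25, the chemokine of small-intestinal enterocytes that holds CCR9-bearing lymphocytes in the gut, was at 4.99, 4.46, 6.28, 6.05 and 5.93 in the CEC samples and at 5.26, 3.08, 4.8, 4.13 and 4.88 in the DNBS samples. CEC 5, 7 and 8 lay above every DNBS sample, and CEC 1 and 3 lay among them. The calprotectin genes were low in CEC 5, 7 and 8, but also in DNBS 5, where Ccl25 was at 4.88. The difference was 1.12 (SE 0.49), 2.17-fold higher (limma, adjusted p = 0.454), and the healthy controls stood at 5.92 ± 0.36 (SD, n = 5). Krt8, a keratin of simple epithelia, differed by 0.96 (SE 0.45), but by 0.21 after centring run 1. Reg3g differed by -0.38 (SE 0.32). Of the 6 measured genes of the epithelial list 4 were higher and 2 lower, 3 and 0 at an unadjusted p under 0.05. Their median was 0.6, and 0.27 after centring runs.

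Erbb2, a receptor tyrosine kinase of epithelial cells, was at 0.31, 0.57, 1.23, 0.78 and 1.11 in the CEC samples and at 0.09, 0.0, 0.35, -0.26 and -0.82 in the DNBS samples. CEC 1 lay just below DNBS 3, and the other 4 CEC samples lay above the DNBS range. The difference was 0.93 (SE 0.31; limma, adjusted p = 0.399), with 0.94 ± 0.46 in the healthy controls (SD, n = 5). B2m, the light chain of MHC class I, was at 8.77, 8.37, 9.32, 8.62 and 9.04 in the CEC samples and at 8.15, 8.16, 8.32, 8.19 and 7.88 in the DNBS samples, without overlap. Its difference was 0.68 (SE 0.31), and 0.4 after centring runs.

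**Figure D4:**
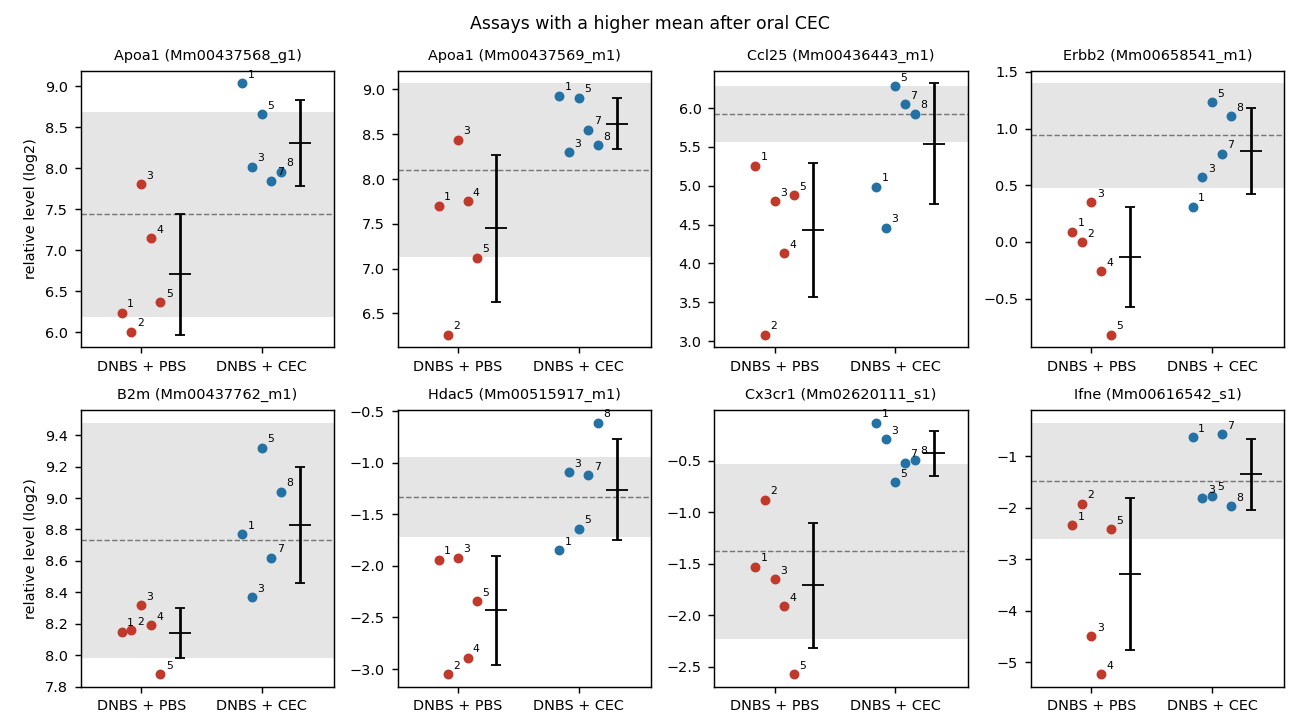
Relative level (log2, y axis) of 8 assays in each DNBS and CEC sample (points, labelled by sample number), with group mean and SD (black bars) and the mean and SD of the 5 healthy controls (dashed line and grey band). No DNBS sample reaches the lowest CEC sample in Apoa1_Mm00437568_g1, B2m, Hdac5 and Cx3cr1, and in Ccl25 the CEC samples 5, 7 and 8 stand at 5.93 to 6.28.

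Hdac5, a class II histone deacetylase, had a higher mean in all 3 of its assays. Hdac5_Mm00515917_m1 was at -1.85, -1.09, -1.64, -1.12 and -0.61 in the CEC samples and at -1.94, -3.05, -1.92, -2.89 and -2.34 in the DNBS samples. Hdac5_Mm00515941_g1 was at -0.78, -1.09, -1.39, -0.47 and -1.21 and at -1.4, -2.27, -1.88, -2.03 and -1.54. The groups did not overlap in either, though CEC 5 and DNBS 1 nearly met in the second, with differences of 1.17 (SE 0.38) and 0.84 (SE 0.29) (limma, adjusted p = 0.399 for both) and of 0.96 and 0.8 after centring runs. The third assay, Hdac5_Mm01246076_m1, gave 0.4 (SE 0.43), and 0.75 after centring. The healthy controls stood at -1.33 ± 0.39 with the first and -1.11 ± 0.41 with the second assay (SD, n = 5). Over the list of histone deacetylases, with the third Hdac5 assay as the one of lowest Ct, 3 of 4 genes were higher and the median was 0.05 (-0.14 without normalization).

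Receptors that guide leukocytes to and within the gut had higher means in the CEC group in single-exon assays. Cx3cr1, the fractalkine receptor of intestinal macrophages, was at -0.13, -0.29, -0.71, -0.52 and -0.49 in the CEC samples and at -1.53, -0.88, -1.65, -1.91 and -2.57 in the DNBS samples, without overlap (1.28, SE 0.4; limma, adjusted p = 0.399). Ccr9, the receptor for CCL25, was at 0.67, -0.5, 0.38, -0.64 and 0.55 in the CEC samples and at -1.77, -0.44, -0.54, -1.46 and -3.28 in the DNBS samples. Its difference was 1.59 (SE 0.5), and 0.84 after centring run 1. Ccr6, which guides lymphocytes to lymphoid follicles, differed by 1.47 (SE 0.55), with CEC samples from -3.41 to -1.3 and DNBS samples from -5.34 to -1.61. With single-exon and other assays centred separately in each sample, the differences were 0.71 for Cx3cr1, 1.02 for Ccr9 and 0.9 for Ccr6.

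Ccr3 and C3ar1 were each read by a single-exon assay and by an assay of the other class. The further receptors of this list with a second assay had both assays on the same side of 0. Ccr3, the eotaxin receptor, differed by 1.43 (SE 0.49) in its single-exon assay and by -0.13 (SE 0.88) in the other. The second read -4.44, -6.56, -2.72, -3.25 and -2.94 in the CEC samples and -2.82, -4.37, -6.68, -2.72 and -2.65 in the DNBS samples, with no separation. C3ar1, the receptor for complement fragment C3a, differed by 0.67 (SE 0.31) without overlap in its single-exon assay and by 0.33 (SE 0.32; 0.61 after centring runs) in the other. With the classes centred separately, the single-exon differences were 0.86 for Ccr3 and 0.1 for C3ar1. Of 25 measured chemokine and chemoattractant receptors 15 were higher and 10 lower, 5 and 0 at an unadjusted p under 0.05, with a median of 0.33. The list held 14 single-exon assays, and its 11 other members had 2 higher, 9 lower and a median of -0.43.

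The same class carried the type I interferons, whose genes mostly lack introns. Ifne, an interferon of epithelia, was at -0.62, -1.81, -1.76, -0.57 and -1.97 in the CEC samples and at -2.34, -1.92, -4.49, -5.23 and -2.41 in the DNBS samples (1.93, SE 0.6, 3.82-fold higher; limma, adjusted p = 0.399). DNBS 3 and 4, the samples with the lowest mean over single-exon assays (-1.31 and -1.67), were also the lowest here. Ifnb1 differed by 1.36 (SE 0.59), with DNBS 4 lowest at -5.51. Of 13 genes of the type I interferon list 10 were higher and 3 lower, 4 and 1 at an unadjusted p under 0.05, with a median of 0.23. Without single-exon assays 4 of 7 were higher and the median was 0.1. Bdkrb2 and Scn9a, which encode a bradykinin receptor and a sodium channel of pain fibres, differed by 1.22 (SE 0.43) and 1.27 (SE 0.47), both in single-exon assays. Bdkrb2 gave 0.47 after centring runs. Of the 6 measured genes of the kinin, histamine and nociception list 5 were higher and 1 lower, with a median of 0.35. At an unadjusted p under 0.05 stood 2 and 0. The list held 4 single-exon assays, and its 2 other members had 1 higher, 1 lower and a median of 0.05. With the classes centred separately, the differences were 1.36 for Ifne, 0.78 for Ifnb1, 0.64 for Bdkrb2 and 0.7 for Scn9a. 

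Socs1, an inhibitor of cytokine receptor kinases, was the 1 single-exon assay at an unadjusted p under 0.05 on the lower side. It read 1.79, 2.79, 2.26, 1.47 and 2.11 in the CEC samples and 3.47, 3.63, 2.39, 3.97 and 2.56 in the DNBS samples. CEC 3 and DNBS 3 and 5 made the groups overlap. The difference was -1.12 (SE 0.41), 2.18-fold lower (limma, adjusted p = 0.399), and -1.7 with the classes centred separately. The healthy level was 2.28 ± 0.59 (SD, n = 5). Among the sensors of microbes upstream of NF-kB, the adaptor Tirap was lower in every CEC sample (-0.37 to 0.23) than in every DNBS sample (0.24 to 0.99), a difference of -0.49 (SE 0.22). Nod1 differed by -0.59 (SE 0.25) and Tlr4, the receptor for lipopolysaccharide, by -0.78 (SE 0.37), and after centring by -0.23 and -0.36. Tlr9 differed by 1.21 (SE 0.5), and by 0.46 after centring. Of 19 list members 8 were higher and 11 lower, 1 and 3 at an unadjusted p under 0.05, with a median of -0.12 that turned to 0.02 when the median assay set the scale.

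Markers of macrophages were mixed. Itgam, the integrin CD11b, was at 2.77, 2.16, 1.13, 0.66 and 1.23 in the CEC samples and at 0.28, 0.99, 0.65, 0.89 and 0.1 in the DNBS samples (1.01, SE 0.43), with CEC 1 and 3 highest. Cd86, a costimulatory ligand, differed by 1.25 (SE 0.55), but by 0.5 after centring run 1. Ccr2, the receptor of circulating monocytes, differed by -0.65 (SE 0.48). Of 13 markers of macrophages, monocytes and dendritic cells 6 were higher and 7 lower, 3 and 0 at an unadjusted p under 0.05, with a median of -0.27 that turned to 0.05 without CEC 8. The complement genes C1qa and C1qb, which macrophages make, differed by 0.41 (SE 0.21) and 0.88 (SE 0.48), and after centring by 0.25 and 0.13. Among complement and acute-phase genes 14 of 19 were higher and 5 lower with none at an unadjusted p under 0.05, and the median was 0.33 (0.06 to 0.48 over the alternatives).

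Few markers of lymphocytes and mast cells were measured. Of 6 T cell markers 4 were higher and 2 lower, with none at an unadjusted p under 0.05 and a median of 0.22, which turned to -0.1 when a Ct of 40 was kept as a value. Cd28, a costimulatory receptor, differed by 0.6 (SE 0.42). Only 2 B cell markers were measured, with a median of -0.22, and the complement receptor gene Cr2 differed by -0.54 (SE 0.68). Kit, the receptor of mast cells and of pacemaker cells of the gut, differed by 0.34 (SE 0.26), and by 0.17 after centring. Of 6 eosinophil and mast cell markers 4 were higher and 2 lower, 1 (the single-exon Ccr3 assay) and 0 at an unadjusted p under 0.05, with a median of 0.24 that turned to -0.03 with array weights and 3 or more values in each of the 4 groups. Bmp5 and Bmp2, growth factors of the TGF-beta superfamily, differed by 1.06 (SE 0.48) and 0.79 (SE 0.41), and after centring by 0.31 and 0.5. In that superfamily 13 of 21 genes were higher and 8 lower, 1 and 0 at an unadjusted p under 0.05, with a median of 0.27. Atrn, which encodes attractin, a glycoprotein of immune cells, was at 0.88, 0.64, 0.81, -0.66 and 0.89 in the CEC samples and at -1.16, 0.37, -0.05, -0.12 and -0.71 in the DNBS samples (0.85, SE 0.45), and its difference was 0.1 after centring run 1. Both groups lay below the healthy controls, at 2.71 ± 1.01 (SD, n = 5).

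**Figure D5:**
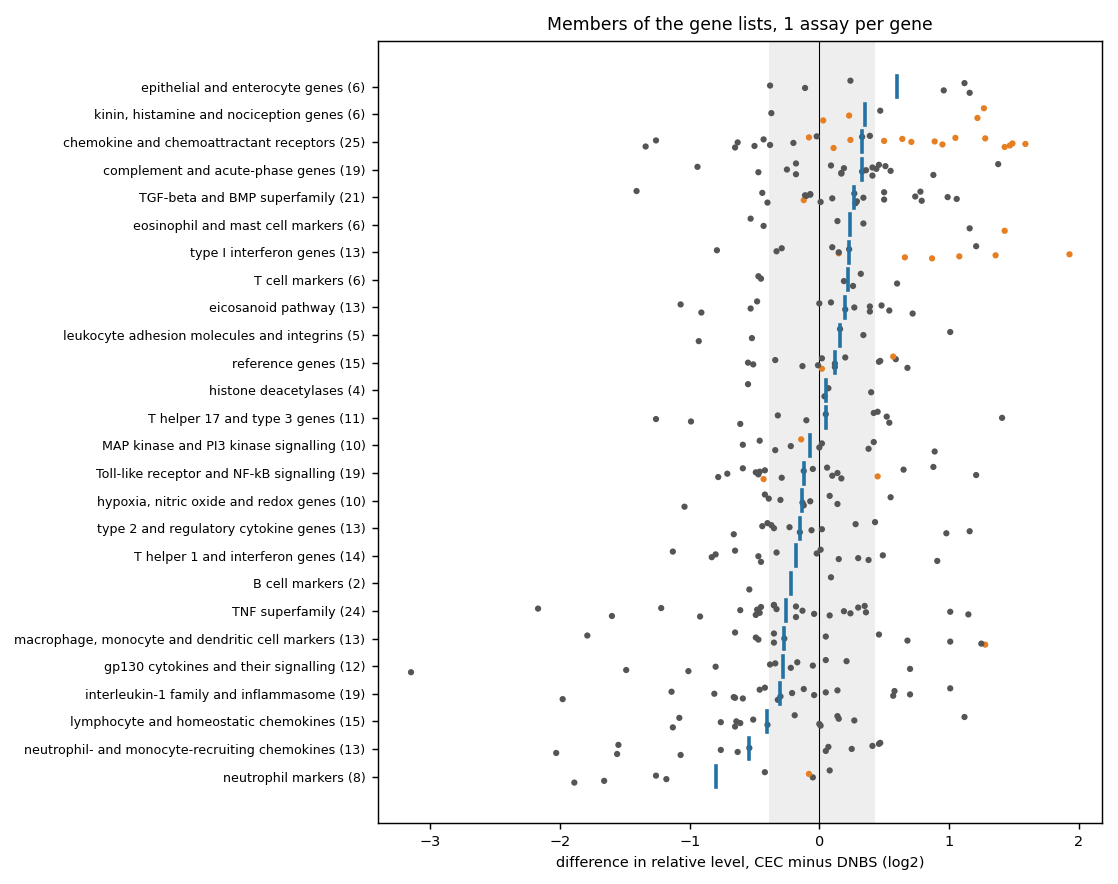
Difference between the CEC and DNBS groups (log2, x axis) for each measured member (points, single-exon assays in orange) of 26 gene lists (y axis, number measured in brackets), with list medians in blue and the quartiles of all assays, -0.39 and 0.43, shaded. The neutrophil list has the lowest median, -0.8, and the epithelial list the highest, 0.6.

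Detection was compared for the 58 assays with a value in some but not all of the 10 samples. Of these, 0 (0.0%) passed (Fisher's exact test, smallest adjusted p = 1.0), and 1 assay lay under 0.05 before adjustment. Fgf23, a hormone of phosphate balance, had a value in 1 of 5 CEC samples, at 27.44 cycles, and in 5 of 5 DNBS samples, at 27.06 to 31.09 cycles (exact p = 0.0476). Tnfsf4, the ligand of the T cell receptor OX40, had a value in 1 of 5 CEC and 4 of 5 DNBS samples (exact p = 0.206). Trpv1, a heat- and capsaicin-gated channel of pain fibres, had one in 5 of 5 CEC and 2 of 5 DNBS samples (exact p = 0.167), and was chosen after its values were seen. With 5 samples against 5, the smallest p this test allows is 0.00794. Adjusted over 58 assays, a lone assay at that p could not pass, so the 0 does not show that detection was alike.

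Of 47 genes with more than 1 tested assay, 30 had all assays on the same side of 0. Among the 10 with an assay at an unadjusted p under 0.05, 8 did, and 4 had 2 such assays: Il6, Hgf, Apoa1 and Hdac5. Of genes used as references, Pgk1, a glycolytic enzyme, differed by -0.55 (SE 0.3) and Tbp, a general transcription factor, by -0.51 (SE 0.28), and the centred differences were -0.29 and -0.09. Both were lower in the CEC group, whereas over the 15 reference genes 10 were higher and 5 lower, 2 and 0 at an unadjusted p under 0.05 (B2m among them). Their median was 0.12 and turned to -0.09 without DNBS 5, -0.07 without normalization or without DNBS 2 and 5, and -0.01 after centring runs.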

How the data were processed

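Ileal mucosa RNA of 20 samples, 5 in each of 4 groups taken from the labels of intrarectal and oral treatment, was read with TaqMan assays. A mirVana kit and OpenArray plates were used, per the labels' protocols. The table deposited by the authors holds raw Ct values in cycles, not normalized, per the file headers. The sources used here do not say whether a value averages wells. A Ct of 40 (1273 cells) and 1 empty cell were taken as missing. Relative levels were centred on the 544 assays with a value in all samples, so they show changes against the mean assay. For each of the 581 assays with at least 3 values in both groups, limma 3.58.1 in R 4.3.3 fitted group means over all 20 samples (eBayes with trend, two-sided, Benjamini-Hochberg at 0.05), which shares the spread of the 4 groups. The procedure was tested on simulated data with independent noise in each assay, which lack the deviations shared within runs and assay classes. For Nissle 3 to 5 one label names the healthy controls and the others the Nissle group, where they were kept. Sample numbers were not taken to pair samples: deviations of same-numbered samples correlated at -0.07, -0.12 and 0.34 (numbers 1, 3 and 5).

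Members, gene lists and tests were chosen with earlier results of these data known. Assays to name were those with the smallest p in each direction and in each list, usual readouts, detection differences, further assays of a named gene and assays whose groups did not overlap. This rule gave 136, of which the text uses up to 93, picked with values known. A list takes 1 assay a gene, that of lowest mean Ct. Symbols follow RefSeq names for GRCm38.p6 (17 renamed, 1 unmatched). Assay primer and probe sequences and genome positions were not used here. Each sample gave 570 to 594 values, its measure of depth.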

Additional observations from a re-analysis of the deposited data

Results flagged for a closer look

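In 12 of the 186 groups of 5 values examined, 1 sample stood apart from the others by Dixon's criterion, and chance flags about 1 group in 20. CEC 7 stood apart in 5 of them. It had the lowest CEC level of Atrn_Mm00437746_m1 (-0.66, next 0.64), Hif1a_Mm01283760_m1 (1.45, next 2.24), Gpx1_Mm00656767_g1 (3.99, next 4.52) and Masp1_Mm00434830_m1 (-5.31, next -3.96), and the highest of Aoc3_Mm00839624_m1 (-0.51, next -1.12). CEC 1 stood apart in 3, lowest in Il12b_Mm00434174_m1 (-7.31, next -4.72) and Cr2_Mm00801681_m1 (-6.33, next -2.92) and highest in Tnfrsf1b_Mm00441889_m1 (1.82, next 1.46). DNBS 5 was highest in Cd28_Mm00483137_m1 (-1.92, next -3.18) and lowest in Ccl7_Mm01308393_g1 (-2.01, next -0.68) and Tgm2_Mm00436987_m1 (4.56, next 5.08). DNBS 4 was highest in Tirap_Mm00446502_m1 (0.99, next 0.41).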

How the results depend on the processing

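Of 40 alternatives, array weights called 21 assays, also with 3 or more values required in each of the 4 groups (21). In the others limma called 0, with 34 to 87 assays at an unadjusted p under 0.05 (62 in the main test), and leaving out 1 sample gave smallest adjusted p-values of 0.0911 (without DNBS 5) to 0.607 (without DNBS 4). With the sample number as a replicate block 0 were called and 87 had an unadjusted p under 0.05 (smallest adjusted p = 0.268, limma). The block gave medians of -0.16 for neutrophil markers and 0.51 for macrophage markers. Of 93 named assays 87 kept their sign throughout, and of 26 lists 10 did. The 93 were picked with values known. Of the 136 assays that the naming rule gave, 20 took the other sign in some alternative. Detection with Ct over 30 as no value also called 0. Nos2_Mm00440502_m1 turned to 0.08 with the median assay as scale, 0.11 with array weights (0.11 with the stricter filter), 0.28 with the block and -0.36 to 0.15 with 1 sample left out. Ccr3_Mm01216172_m1 turned to 0.01 with the median assay as scale, 0.65 with array weights (0.66), 0.09 without DNBS 2 and 5, and -0.84 to 0.51 with 1 left out. Cr2_Mm00801681_m1 turned to 0.11 with array weights (0.12) and -0.89 to 0.24 with 1 left out. Ifng_Mm99999071_m1 turned to 0.38 with the block, Il12b_Mm00434174_m1 to -0.24 with the block and ranged from -0.11 (without DNBS 4) to 0.89 with 1 left out, and Il12b_Mm99999067_m1 to -0.08 after centring runs. The cause was not tested. Centring runs or assay classes, leaving out DNBS 2 and 5, and the stricter filter with array weights were chosen after seeing the data.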
